A study of Rattus norvegicus with 12 samples.

Results

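The aldo-keto reductases of the Akr1 family were followed in primary rat hepatocytes given a glucocorticoid. Probes were chosen by gene name, as every probe of the array that carries an Akr1 symbol or an older symbol of such a gene: 18 probes of 17 genes, out of 41012 probes that carry 35402 gene or transcript names. The 5 genes that set the choice were Akr1b7, Akr1b10, Akr1c14, Akr1d1 and Akr1a1. A further 2 probes of Akr1 pseudogenes and 3 probes that only a description ties to the family are given apart. A probe was tested where every array of 1 group read it well above background, which 17 of the 18 Akr1 probes did, among 30969 tested probes; the exception was Akr1c3.

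RNA was measured in hepatocytes that collagenase perfusion had released from livers of Sprague-Dawley rats aged 11 weeks. After plating and a change to medium without serum, the cells received the synthetic glucocorticoid dexamethasone at 100 nM, or 0.01% ethanol as its vehicle, for 6 h. The 12 samples form 4 groups of 3, each sample on its own 1-colour Agilent array: female dexamethasone, female vehicle, male dexamethasone and male vehicle. Sex was taken from the sample titles, because a separate gender field reads male for all 12 samples. Nothing in the labels says whether replicates came from separate animals or cultures, so the p-values reflect the spread among the samples at hand and that spread could be technical. Fewer cells of a type and less RNA per cell cannot be told apart in such samples.

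Aldo-keto reductases are cytosolic enzymes that use NADPH to reduce aldehydes and ketones to alcohols. The Akr1c enzymes act as hydroxysteroid dehydrogenases, and by turning the oxo and hydroxy groups of steroids into each other they set how much active hormone remains. Akr1d1 reduces the double bond in the steroid A ring, a step of bile acid synthesis and of the clearance of steroid hormones, glucocorticoids included. The Akr1b enzymes reduce glucose and lipid-derived aldehydes, and Akr1a1 is the aldehyde reductase that in rodents serves ascorbate synthesis.

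Because these genes are close paralogs, the sequence that each probe reads decides which of them a value belongs to. The 60-base probes below are those of the members that the results turn on, 5′ to 3′ as the array files print them, with nothing capitalised because no single stretch is singled out.
Akr1c14, chr17:77327921-77327980: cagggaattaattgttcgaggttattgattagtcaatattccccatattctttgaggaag
AKR1C3l1, chr17:76912932-76914487: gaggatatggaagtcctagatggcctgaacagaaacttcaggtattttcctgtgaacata
Akr1c15, chr17:77352210-77352269: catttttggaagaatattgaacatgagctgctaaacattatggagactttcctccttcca
Akr1c1, chr17:77095180-77095239: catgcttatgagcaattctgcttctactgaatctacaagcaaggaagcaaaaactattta
Akr1c2, chr17:77052291-77052350: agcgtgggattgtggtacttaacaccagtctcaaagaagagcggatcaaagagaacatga
Akr1c12_predicted, chr17:77166422-77166481: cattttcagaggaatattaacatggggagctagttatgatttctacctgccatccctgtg
Akr1d1, brighter probe, chr4:65272466-65277499: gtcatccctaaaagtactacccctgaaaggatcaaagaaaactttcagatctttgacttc
Akr1d1, dimmer probe, chr4:65281746-65281807: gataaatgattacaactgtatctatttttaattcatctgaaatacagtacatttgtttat
Akr1a1, chr5:136928496-136928555: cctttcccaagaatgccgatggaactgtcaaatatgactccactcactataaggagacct
Akr1b7, chr4:62082899-62082958: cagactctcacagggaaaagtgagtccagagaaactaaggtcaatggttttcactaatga
Akr1b10, chr4:62037795-62039021: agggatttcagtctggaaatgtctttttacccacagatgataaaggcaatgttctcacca
Positions are those listed in the array files on rat build rn3, which give no strand. A listed span longer than the probe, as for AKR1C3l1, runs over sequence that the probe does not hold. No pair of the 18 Akr1 probes matched at more than 31 of 60 bases in any ungapped alignment, and the longest run shared by that closest pair, of Akr1b8 and the brighter Akr1d1 probe, was 11 bases. The transcripts themselves were not compared, so reading of one paralog by the probe of another was not tested.

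Of the Akr1c probes and the probe of Akr1e2, 10 lie in 1 stretch of chromosome 17, at chr17:76912932-77352269. The Akr1c12 probe is listed on sequence not placed on a chromosome (Un), outside that stretch. The 4 Akr1b probes lie together at chr4:61930699-62082958. Symbols were brought up to date through RefSeq: the files call Akr1c14 LOC191574, AKR1C3l1 RGD1564865_predicted, Akr1c15 Akr1cl1_predicted, Akr1c1 Akr1c6, Akr1c2 Akr1c21, Akr1c3 Akr1c18, Akr1b1 Akr1b4 and Akr1e2 Akr1e1. The name Akr1c12_predicted was kept as the files print it, because RefSeq gives it to more than 1 gene, while the probe called Akr1c12 here is LOC364773 in the files.

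Arrays differed by slide. Male dexamethasone replicate 1 and all of male vehicle shared a slide on which 45.7% to 66.5% of probes were well above background, against 72.4% to 80.4% on the other 8 arrays. All 10 hepatocyte markers and all 12 Kupffer cell markers were above background on every array of every group. The summed level of the 9 measured stellate cell and fibroblast markers was 2.43 to 2.86 (log2) in female dexamethasone against 3.11 to 3.89 in female vehicle, and 1.5 to 2.68 in male dexamethasone against 2.28 to 2.92 in male vehicle; 8, 8, 7 and 5 of the 9 were above background on all 3 arrays of these groups. The 8 cholangiocyte markers summed to 3.17 to 3.90 in female dexamethasone against 3.78 to 4.76 in female vehicle, and to 2.88 to 3.24 in male dexamethasone against 1.68 to 3.77 in male vehicle, where 1 spot was left out. Over all arrays the 10 endothelial markers summed to 1.31 to 2.74 and the 8 measured lymphocyte markers to -0.61 to 0.26. The part of these other cells in the results on Akr1 genes was not tested. Levels below are the log2 processed signal minus the 75th percentile of the array, a scale on which a probe is compared with itself across arrays and never with another probe.

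**Figure D1:**
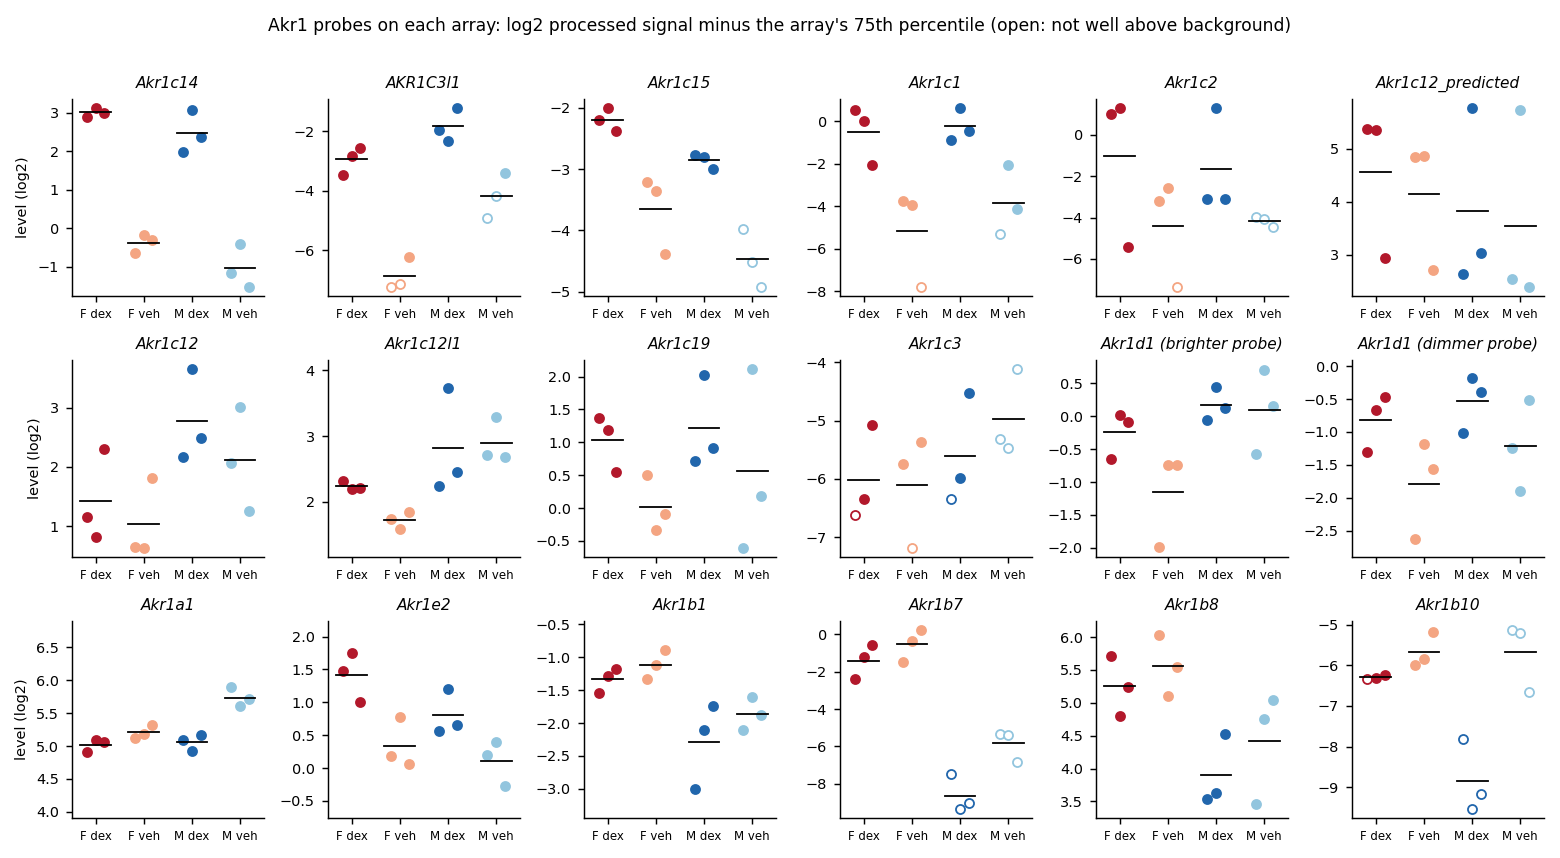
Level of each of the 18 Akr1 probes on every array (y axis, log2 processed signal minus the array's 75th percentile; axes differ between panels), with 3 arrays in each group; F is female, M male, dex dexamethasone and veh vehicle, lines are group means and open points are not well above background. Akr1c14 separates by treatment in both sexes, whereas Akr1b7 separates by sex, with all 6 male points open.

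The first question was which Akr1 genes a 6 h exposure to dexamethasone changed in hepatocytes of each sex. Akr1c14, AKR1C3l1 and Akr1c15 were higher in dexamethasone in both sexes. Akr1c1 passed as higher in females, and in males it was higher by 3.61 without passing (limma adjusted p = 0.069). Its responses were not told apart, with a difference of 1.06 ± 1.61 (SE, adjusted p = 0.87). Akr1a1 fell in males, by 0.68 on the log2 scale. In females, 4 of the 17 Akr1 probes rose and 0 fell at an adjusted p of 0.05 (limma; 7 had an unadjusted p under that value, as did 16.7% of all tested probes), where 3.82% of all tested probes changed, 2.81% upward. In males 3 rose and 3 passed as lower, where 10.2% of all tested probes changed, 5.36% upward and 4.85% downward. Of those 3 lower ones Akr1a1 alone is a measured fall, since Akr1b7 and Akr1b10 were above background on 0 of 6 male arrays. The median difference over the 17 was 0.92 in females and 0.65 in males, against -0.02 and -0.06 over all tested probes. AKR1C3l1, Akr1c1 and Akr1c2 are among the 17 only through dexamethasone groups, where they were high. That tilts the counts and medians upward, and no rise of the family as a whole is drawn from them.

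Akr1c14 is the 3α-hydroxysteroid dehydrogenase of rat liver, which reduces 3-oxo steroids and also takes part in bile acid handling. Its level was 2.90, 3.13 and 3.01 in female dexamethasone replicates 1 to 3, against -0.65, -0.16 and -0.30 in female vehicle. In males the level was 1.98, 3.09 and 2.37 in male dexamethasone, against -1.17, -0.40 and -1.53 in male vehicle. Every dexamethasone array therefore lay above every vehicle array of its sex, as was so for 16.4% of all tested probes in females and 11.5% in males, and the probe was above background on all 12. The difference was 3.38 ± 0.32 in females (SE, n = 3 each, adjusted p = 0.00037), a 10.4-fold change, and 3.51 ± 0.32 in males (SE, n = 3 each, adjusted p = 0.0003), an 11.4-fold change. Within replicate numbers it was 3.29 to 3.55 in females and 3.14 to 3.90 in males. The 3 female dexamethasone arrays lay on average 3.32 above female vehicle replicate 3, the 1 vehicle array of their slide. Male dexamethasone replicate 1 lay 3.01 above the mean of the male vehicle arrays, which share its slide. With 1 array in an arm, these values within a slide have no replicate check.

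By mean level, the groups ran from 3.01 ± 0.11 in female dexamethasone through 2.48 ± 0.56 in male dexamethasone and -0.37 ± 0.25 in female vehicle to -1.03 ± 0.57 in male vehicle (SD, n = 3 each). Females and males did not differ past the threshold in dexamethasone (adjusted p = 0.41) or in vehicle (adjusted p = 0.19). The difference between the female and the male response was -0.13 ± 0.45 (SE, adjusted p = 0.96).

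Among 9045 named genes above background on all 12 arrays, the smallest root-mean-square distance from Akr1c14, after centring each gene on its own mean over the 12 arrays, was that of Depp1 at 0.29 (log2). Next came Tdo2, the enzyme that starts tryptophan breakdown, at 0.35, and Igfbp1, which binds insulin-like growth factors, at 0.42. Depp1 averaged 7.22 in female dexamethasone and 3.58 in female vehicle, and 7.03 in male dexamethasone and 3.17 in male vehicle. These genes were picked for their likeness, which is a description of 12 arrays.

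AKR1C3l1, whose symbol likens it to the human steroid dehydrogenase AKR1C3, was dim without dexamethasone. Its level was -3.46, -2.84 and -2.55 in female dexamethasone, against -7.23, -7.13 and -6.20 in female vehicle, where 1 of 3 arrays was above background. Male arrays read -1.95, -2.33 and -1.22 in dexamethasone, against -4.92, -4.16 and -3.40 in vehicle, again with 1 of 3 arrays above background. The groups did not overlap in either sex. The same held, with dexamethasone higher, for 16.4% of all tested probes in females and 11.5% in males. The difference was 3.91 ± 0.43 in females (adjusted p = 0.001) and 2.33 ± 0.43 in males (adjusted p = 0.0096; SE, n = 3 each). AKR1C3l1 entered the test only through the dexamethasone groups, where it was high, so these p-values are no separate support for the rise. Because most vehicle arrays read background, both differences depend on the background of those arrays. With normexp background correction, which adds an offset of 50 to every signal, they were 1.49 in females (adjusted p = 0.00203) and 1.01 in males (adjusted p = 0.0121). With slide as a block the male difference was 2.21 and no longer passed (adjusted p = 0.106).

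Akr1c15 was higher in dexamethasone on a smaller scale. Its level was -2.21, -2.0 and -2.37 in female dexamethasone, against -3.20, -3.36 and -4.39 in female vehicle, all above background. Male arrays read -2.77, -2.80 and -3.00 in dexamethasone, against -3.98, -4.51 and -4.93 in vehicle, where no array was above background. All dexamethasone arrays lay above all vehicle arrays of the same sex. The same held for 16.4% of all tested probes in females and 11.5% in males. The female difference was 1.45 ± 0.31 (SE, n = 3 each, adjusted p = 0.03), a 2.74-fold change. The female call was lost without female vehicle replicate 3, where the difference was 1.09, and without any 1 of the female dexamethasone arrays, where it was 1.36 to 1.54 (adjusted p = 0.0761 to 0.122 over these 4). In males dexamethasone was at least 1.95-fold higher (adjusted p = 0.011), a bound that sets the bright group against the lowest signal above background on each vehicle array. With normexp background correction the male difference was 0.33 (adjusted p = 0.272). The male call was also lost with only the arrays of the groups compared and with array weights. The female call was also lost with the array median as scale, quantile normalization and no filter on dim probes.

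Akr1c1, whose mouse counterpart Akr1c6 is a 17β-hydroxysteroid dehydrogenase, varied widely between replicates. Its level was 0.53, 0.02 and -2.06 in female dexamethasone, against -3.77, -3.93 and -7.81 in female vehicle, where replicate 3 was not above background. Male samples had -0.86, 0.63 and -0.44 in dexamethasone, against -5.30, -2.05 and -4.14 in vehicle, where replicate 1 was not above background. Replicate 3 was the low sample of both female groups, and replicate 2 the high sample of both male groups. The difference was 4.67 ± 1.14 in females (adjusted p = 0.048) and 3.61 ± 1.14 in males (adjusted p = 0.069; SE, n = 3 each). Akr1c1 too entered the test only through the dexamethasone groups, where it was high, so its p-values are no separate support. The labels name no pairs, but same-numbered samples of a sex deviated together in these data (the check is given under the processing). A fit with each numbered pair of a sex as a block was added after seeing the data. In it the response passed in females (limma adjusted p = 0.00452) and in males (adjusted p = 0.00587). Within pairs it was 3.95 to 5.75 in females and 2.68 to 4.44 in males. Without the block the female call was lost when female vehicle replicate 1 or 3, male vehicle replicate 3 or any 1 of the 6 dexamethasone arrays was left out, at differences of 3.35 to 5.45 (adjusted p = 0.0567 to 0.178). With normexp background correction the response was 2.87 in females (adjusted p = 0.0208) and 1.92 in males (adjusted p = 0.0457). The female call was lost with the array median as scale, quantile normalization, no filter on dim probes and only the arrays of the groups compared. It was kept in 11 of 24 alternatives. The male response passed without male vehicle replicate 2, at 4.5 (adjusted p = 0.045), and without female vehicle replicate 3, at 3.61 (adjusted p = 0.0324).

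Akr1c2, whose mouse counterpart Akr1c21 is a 3(17)α-hydroxysteroid dehydrogenase, had the widest spread of all. Its level was 1.01, 1.29 and -5.41 in female dexamethasone, against -3.21, -2.58 and -7.38 in female vehicle, where replicate 3 was not above background. It was -3.10, 1.31 and -3.10 in male dexamethasone, against -3.99, -4.07 and -4.45 in male vehicle, where no array was above background. Every dexamethasone sample was above the vehicle sample of its number, by 1.96 to 4.22 in females and by 0.89 to 5.38 in males. The group means did not differ past the threshold, at 3.35 ± 1.85 in females (adjusted p = 0.43) and 2.54 ± 1.85 in males (adjusted p = 0.41; SE, n = 3 each), nor with the pairs as a block (adjusted p = 0.0787 and 0.0978).

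Akr1a1 varied least. Its level was 4.91, 5.09 and 5.07 in female dexamethasone, against 5.13, 5.18 and 5.32 in female vehicle. It was 5.09, 4.92 and 5.17 in male dexamethasone, against 5.90, 5.60 and 5.71 in male vehicle. Male vehicle stood apart from the other groups, which spanned 4.91 to 5.32. In males Akr1a1 fell by 0.68 ± 0.14 (SE, n = 3 each, adjusted p = 0.016), a 1.60-fold change, and in females the difference was -0.19 ± 0.14 (adjusted p = 0.61). The male value was -0.65 with slide as a block (adjusted p = 0.168), and -0.61 without male dexamethasone replicate 2 (adjusted p = 0.0622). The difference between the responses was 0.49 ± 0.20 (SE, adjusted p = 0.38).

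Akr1d1, the 5β-reductase, was read by both of its probes, called the brighter and the dimmer one after their signal. On the brighter probe its level was -0.65, 0.03 and -0.08 in female dexamethasone, against -1.99, -0.74 and -0.74 in female vehicle. It was -0.05, 0.45 and 0.13 in male dexamethasone, against -0.58, 0.70 and 0.16 in male vehicle. The female groups did not overlap, as in 16.4% of all tested probes with dexamethasone higher, and the male groups did. The difference was 0.92 ± 0.39 in females (adjusted p = 0.26) and 0.08 ± 0.39 in males (adjusted p = 0.92; SE, n = 3 each). With the replicate number as a block over both sexes the brighter probe passed in females (adjusted p = 0.0408), and with the numbered pairs of each sex as a block it did not (adjusted p = 0.051). The dimmer probe gave 0.98 ± 0.43 in females (adjusted p = 0.28) and 0.69 ± 0.43 in males (adjusted p = 0.34). With array weights both probes passed in females (adjusted p = 0.0151 on the brighter and 0.0167 on the dimmer), a setting under which 18.5% of all tested probes did. Both probes were higher in dexamethasone in all 3 numbered female pairs, by 0.66 to 1.33 on the brighter and 0.52 to 1.34 on the dimmer. In males the probes disagreed, since the brighter was higher in 1 of 3 pairs and the dimmer in 3 of 3. The genes nearest to the brighter Akr1d1 probe over the 12 arrays, by the measure used for Akr1c14, were Ckmt1 at 0.31, Fah at 0.33 and Ddah1 at 0.34.

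Akr1e2, which reduces 1,5-anhydrofructose, was 1.48, 1.75 and 1.01 in female dexamethasone, against 0.19, 0.78 and 0.06 in female vehicle. In males it was 0.57, 1.2 and 0.66 in dexamethasone, against 0.20, 0.40 and -0.27 in vehicle. The dexamethasone arrays lay above the vehicle arrays in both sexes. The same held for 16.4% of all tested probes in females and 11.5% in males. The difference of 1.07 ± 0.28 in females (adjusted p = 0.062) and 0.70 ± 0.28 in males (adjusted p = 0.14; SE, n = 3 each) missed the threshold. With the numbered pairs of each sex as a block, the fit added after seeing the data, both passed (adjusted p = 0.0165 and 0.0327). The female response also passed without female vehicle replicate 2, at 1.29 (adjusted p = 0.0407), or without male vehicle replicate 3, at 1.07 (adjusted p = 0.0483).

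In the Akr1b group no probe rose in either sex. Akr1b1, the aldose reductase of the polyol pathway, differed by -0.22 ± 0.29 in females (adjusted p = 0.82) and by -0.42 ± 0.29 in males (adjusted p = 0.38). Akr1b8, known in mouse as a protein induced by fibroblast growth factor, differed by -0.30 ± 0.43 in females (adjusted p = 0.85) and by -0.52 ± 0.43 in males (adjusted p = 0.49; SE, n = 3 each). Akr1b7, an aldose reductase-like protein abundant in the mouse vas deferens, was -2.39, -1.23 and -0.57 in female dexamethasone, against -1.46, -0.35 and 0.25 in female vehicle. The difference within numbered female pairs was -0.93 to -0.82, while the group difference of -0.88 ± 0.65 did not pass (adjusted p = 0.6). In males Akr1b7 and Akr1b10 passed the test as lower in dexamethasone (adjusted p = 0.023 and 0.0036), Akr1b7 no longer when male dexamethasone replicate 2 or 3, or number 1 or 2 of male vehicle, was left out (-2.58 to -2.43, adjusted p = 0.0612 to 0.0863), but neither was above background on any male array, so no fold is given. The lowest level above background was -5.74 on male dexamethasone replicate 1 and -7.23 and -6.90 on replicates 2 and 3, against -3.49, -3.37 and -4.60 on the male vehicle arrays.

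**Figure D2:**
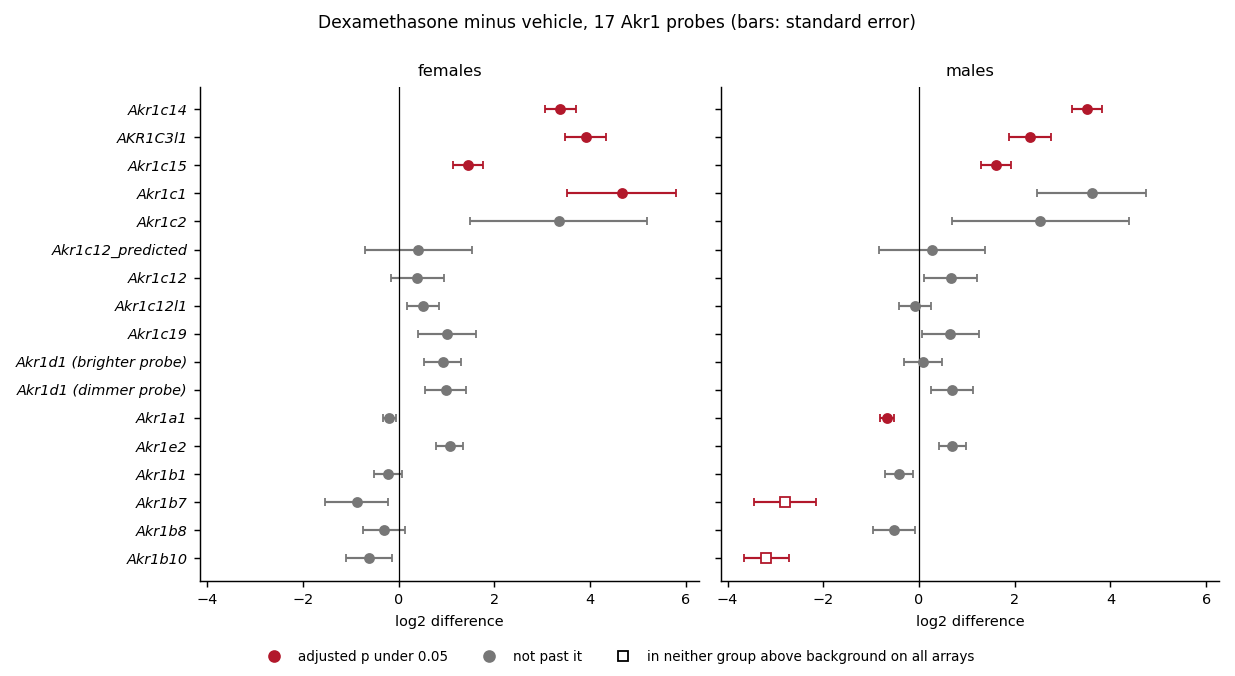
Difference between dexamethasone and vehicle (x axis, log2) for the 17 tested Akr1 probes in females and males, with standard errors as bars; red marks an adjusted p under 0.05 and open squares a probe above background on all arrays of neither group. Akr1c14, AKR1C3l1 and Akr1c15 lie right of 0 in both sexes.

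The next question was whether the response differed between the sexes. For 0 of the 17 Akr1 probes did the difference of the responses pass (limma), against 0.107% of all tested probes, 0.0743% with a positive and 0.0323% with a negative difference, and 3 of the 17 had an unadjusted p under 0.05, as did 11.8% of all tested probes. That of AKR1C3l1 was 1.58 ± 0.61 (SE, adjusted p = 0.34), so that its responses of 3.91 in females and 2.33 in males were not told apart. It includes vehicle arrays at background in both sexes. The lowest level above background was -4.60 to -3.37 on male and -7.10 to -6.69 on female vehicle arrays, so 1.58 includes that difference in background. For Akr1b10 the difference of the responses, which includes male arrays at background, was 2.56 ± 0.68 (SE, adjusted p = 0.14). It passed without male vehicle replicate 3, at 3.06 (adjusted p = 0.0331).

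Promoters were read for the 3 genes that rose in both sexes, to show what their starts share. They are RefSeq sequences of build GRCr8, from 250 bases before to 50 after the start of the gene and on the strand of the gene; capitals mark matches to any of the motifs named next.
Akr1c14, chr17:71083135-71083434, minus strand: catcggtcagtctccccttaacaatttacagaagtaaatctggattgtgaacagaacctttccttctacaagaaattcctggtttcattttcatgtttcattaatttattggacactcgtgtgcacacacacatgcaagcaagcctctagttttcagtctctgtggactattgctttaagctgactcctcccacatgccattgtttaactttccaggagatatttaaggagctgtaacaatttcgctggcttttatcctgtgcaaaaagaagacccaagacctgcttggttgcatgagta
AKR1C3l1, chr17:70757251-70757550, plus strand: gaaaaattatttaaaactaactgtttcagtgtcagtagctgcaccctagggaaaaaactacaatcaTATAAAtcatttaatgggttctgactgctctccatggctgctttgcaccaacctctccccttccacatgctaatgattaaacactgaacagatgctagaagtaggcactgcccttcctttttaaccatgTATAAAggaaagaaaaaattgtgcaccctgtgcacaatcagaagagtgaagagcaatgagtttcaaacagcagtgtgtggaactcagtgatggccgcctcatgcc
Akr1c15, chr17:71117908-71118207, minus strand: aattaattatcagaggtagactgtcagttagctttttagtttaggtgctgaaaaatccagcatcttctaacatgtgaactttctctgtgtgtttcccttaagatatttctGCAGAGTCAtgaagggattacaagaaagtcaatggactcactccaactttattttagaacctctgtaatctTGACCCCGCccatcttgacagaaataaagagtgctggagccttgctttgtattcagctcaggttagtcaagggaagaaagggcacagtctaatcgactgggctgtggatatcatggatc
RefSeq promoters were matched for 13 of the 17 Akr1 genes, and 7 motifs were searched on both strands. The glucocorticoid response element, written GNACANNNTGTNC, was in 0 of the 13 and in 0.439% of all 33469 promoters. AGAACA, a single hexamer whose bases after the first match the start of that element, was in Akr1b7 and Akr1b8 and in 20.7% of all promoters. TATAAA, the TATA box, was in AKR1C3l1, where it occurred at both capitalised places, and in Akr1c19 and Akr1c3, against 14.2% of all promoters. TGACNNNGC, the core of the antioxidant response element, was in Akr1c15 and in 12.1% of all. The STAT site TTCNNNGAA was in Akr1c12l1 and Akr1c2 (8.87% of all), the HNF1 motif GTTAAT in Akr1c12l1 (7.45%) and the C/EBP site TTGCNNAA in Akr1b8 and Akr1c2 (10.6%). The window printed for Akr1c14 held none of the 7 motifs. The 3 promoters share 48.0% to 52.7% of aligned bases with each other, whereas those of Akr1c12 and Akr1c12l1 share 82.0%. Apart from that pair, any 2 of the 13 promoters shared 45.5% to 56.4%, the highest being Akr1b7 with Akr1c14. The 3 genes that rose thus shared no more than other members did.

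The samples of 1 number carried the same level of some Akr1c genes in both treatments. Akr1c12_predicted was 5.37, 5.36 and 2.94 in female dexamethasone, against 4.84, 4.86 and 2.72 in female vehicle. It was 2.64, 5.77 and 3.04 in male dexamethasone, against 2.54, 5.72 and 2.39 in male vehicle. Female numbers 1 and 2 and male number 2 were thus high in both treatments, and female number 3 and male numbers 1 and 3 low in both. Within pairs dexamethasone differed from vehicle by 0.22 to 0.53 in females and 0.05 to 0.65 in males, while the samples of male vehicle alone ranged from 2.39 to 5.72. The group difference was 0.41 ± 1.11 in females (adjusted p = 0.94) and 0.27 ± 1.11 in males (adjusted p = 0.9; SE, n = 3 each).

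The pattern was not the same for every Akr1c gene. Akr1c12 was high in the samples numbered 3 of females, at 2.30 in dexamethasone and 1.81 in vehicle, where Akr1c12_predicted was low. In female numbers 1 and 2 it was 1.15 and 0.82 in dexamethasone, against 0.65 and 0.63 in vehicle. Male samples had 2.17, 3.65 and 2.48 in dexamethasone, against 2.07, 3.00 and 1.26 in vehicle, with number 2 the highest of both groups. Akr1c1 and Akr1c2, whose values are given above, were lowest in female number 3 in both treatments. The pooled SD within groups was 2.63 for Akr1c2, 1.62 for Akr1c1, 1.58 for Akr1c12_predicted, 0.84 for Akr1c19, 0.78 for Akr1c12 and 0.12 for Akr1a1, where the median of all 30969 tested probes was 0.31. Of all tested probes, 99.96% had an SD no greater than that of Akr1c2, and 3.52% one no greater than that of Akr1a1. Whether a number stands for an animal, a culture or a day is not given in the sources used here, and the cause of these differences was not tested.

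**Figure D3:**
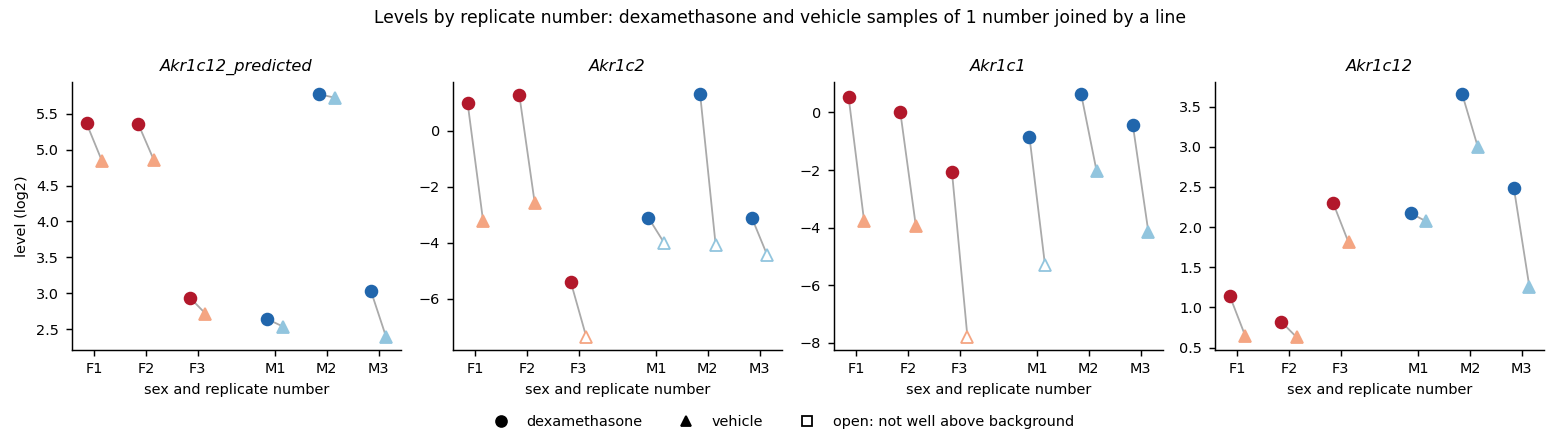
Levels of Akr1c12_predicted, Akr1c2, Akr1c1 and Akr1c12 (y axis, log2, own scale per panel) by sex (F female, M male) and replicate number, with circles for dexamethasone, triangles for vehicle, open symbols not well above background and a line joining the samples of 1 number. Akr1c12_predicted lies at 4.84 or above in both treatments of F1, F2 and M2 and at 3.04 or below in the others.

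The remaining Akr1c probes did not pass the threshold in either sex. Akr1c19 differed by 1.01 ± 0.60 in females (adjusted p = 0.48) and 0.65 ± 0.60 in males (adjusted p = 0.53; SE, n = 3 each). Its female groups did not overlap, as in 16.4% of all tested probes with dexamethasone higher. It was higher in dexamethasone in 3 of 3 female pairs, by 0.64 to 1.53, and in 2 of 3 male pairs. Akr1c12 differed by 0.40 ± 0.56 (adjusted p = 0.85) and 0.66 ± 0.56 (adjusted p = 0.49), and Akr1c12l1 by 0.52 ± 0.33 (adjusted p = 0.53) and -0.08 ± 0.33 (adjusted p = 0.91; SE, n = 3 each). Akr1c3, the 20α-hydroxysteroid dehydrogenase that inactivates progesterone, was above background on 2 of 3 arrays in female dexamethasone, female vehicle and male dexamethasone and on 0 of 3 in male vehicle. It was therefore not tested.

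The sexes were compared next, within each treatment. Akr1b7 was the Akr1 gene that set females apart from males: it was above background on all 6 female arrays and on 0 of 6 male arrays. In dexamethasone the level of Akr1b7 was -2.39, -1.23 and -0.57 in females, against -7.48, -9.36 and -9.06 in males. In vehicle it was -1.46, -0.35 and 0.25 in females, against -5.34, -5.37 and -6.81 in males. Females were at least 37.4-fold higher in dexamethasone (adjusted p = 0.00035) and at least 9.86-fold higher in vehicle (adjusted p = 0.0012), each set against the lowest signal above background on the male arrays. Akr1b7 entered the test only through the female groups, where it was high, so these p-values are no separate support for the difference. With normexp background correction the difference was 2.57 in dexamethasone (adjusted p = 0.0043) and 2.89 in vehicle (adjusted p = 0.000599). With slide as a block the difference was 6.66 in dexamethasone and no longer passed (adjusted p = 0.0727). No slide held both sexes at the same treatment, so within a slide the sexes cannot be compared. Markers of stellate cells and fibroblasts also ran higher in females, with the female mean above the male mean for 8 of the 9 in dexamethasone and 7 of the 9 in vehicle. Lrat, which stores retinol in stellate cells, averaged -1.67 in female dexamethasone against -4.56 in male dexamethasone, and -1.15 in female vehicle against -5.57 in male vehicle, where 0 of 3 arrays were above background. Pdgfrb, a growth factor receptor of these cells, averaged -2.68 in female dexamethasone against -5.83 in male dexamethasone, and -1.55 in female vehicle against -5.75 in male vehicle, with 2 of 3 and 0 of 3 male arrays above background. Of the 12 Kupffer cell markers 10 had the higher mean in females in each treatment, and of the 10 hepatocyte markers 3 did. The part of these cells in the sex difference of Akr1b7 was not tested.

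Akr1b10, which in human reduces retinal and lipid aldehydes, lies near Akr1b7 in the stretch on chromosome 4. It was -6.33, -6.30 and -6.23 in female dexamethasone, with 2 of 3 arrays above background, against -7.82, -9.54 and -9.18 in male dexamethasone with 0 of 3. The test called females higher (adjusted p = 0.02), but no fold is given, because the lowest level above background on male dexamethasone replicate 1, -5.74, exceeded all 3 female values. The call was lost without male dexamethasone replicate 2 or 3 or without any 1 of the female dexamethasone arrays (differences of 2.21 to 2.58, adjusted p = 0.0566 to 0.0825). In vehicle it was -6.00, -5.83 and -5.17 in females, all above background, against -5.12, -5.21 and -6.65 in males, none above it, and no difference can be given because the male arrays had the higher background. The difference in dexamethasone turned to -0.07 with normexp background correction. The other Akr1b probes were brighter in females without passing: Akr1b8 by 1.35 ± 0.43 in dexamethasone (adjusted p = 0.13) and 1.14 ± 0.43 in vehicle (adjusted p = 0.1), and Akr1b1 by 0.95 ± 0.29 (adjusted p = 0.11) and 0.75 ± 0.29 (adjusted p = 0.11; SE, n = 3 each).

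In dexamethasone 2 of the 17 Akr1 probes, Akr1b7 and Akr1b10, passed as higher in females and 0 as lower, where 2.99% of all tested probes differed, 1.23% upward and 1.77% downward. With the replicate numbers as a block, where 5.63% of all tested probes differed, 3 passed as higher and 1 as lower. The additions were Akr1b1 (limma adjusted p = 0.034, and 0.11 without the block) and AKR1C3l1 (0.0262, and 0.2 without it). That block joins female and male samples of 1 number, which nothing in the labels pairs. No sex difference is therefore drawn from these additions. In vehicle 1 passed as higher and 3 as lower, where 14.0% of all tested probes differed, 6.25% upward and 7.73% downward. The lower ones were Akr1a1, Akr1c12l1 and AKR1C3l1, the last with most arrays at background.

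Akr1c12l1 was 1.74, 1.58 and 1.85 in female vehicle, against 2.71, 3.29 and 2.68 in male vehicle, without overlap, as was so for 17.4% of all tested probes in that direction. The difference was -1.17 ± 0.33 (SE, n = 3 each, adjusted p = 0.041), a 2.25-fold change, and in dexamethasone it was -0.57 ± 0.33 (adjusted p = 0.4). Akr1a1 differed by -0.52 ± 0.14 in vehicle (adjusted p = 0.036) and by -0.04 ± 0.14 in dexamethasone (adjusted p = 0.93; SE, n = 3 each). AKR1C3l1 was above background on 1 of 3 vehicle arrays of each sex, number 3 in both, which read -6.20 in females and -3.40 in males. No size is given for its call (adjusted p = 0.0041), because the male vehicle arrays had the higher background. The calls on Akr1a1 and Akr1c12l1 were lost without male vehicle replicate 1 or any 1 of the 6 female arrays, and that on Akr1c12l1 also without male vehicle replicate 2, at -0.58 to -0.44 for Akr1a1 (adjusted p = 0.0533 to 0.124) and -1.26 to -0.97 for Akr1c12l1 (adjusted p = 0.0553 to 0.111). With slide as a block none of the 3 passed, at adjusted p = 0.114 for AKR1C3l1, 0.413 for Akr1a1 and 0.152 for Akr1c12l1. Akr1d1 on its brighter probe was lower in female vehicle by a margin that missed the threshold, at -1.25 ± 0.39 (SE, n = 3 each, adjusted p = 0.056; -1.59 and adjusted p = 0.0258 without male vehicle replicate 1), and by -0.58 ± 0.43 on its dimmer probe (adjusted p = 0.4).

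**Figure D4:**
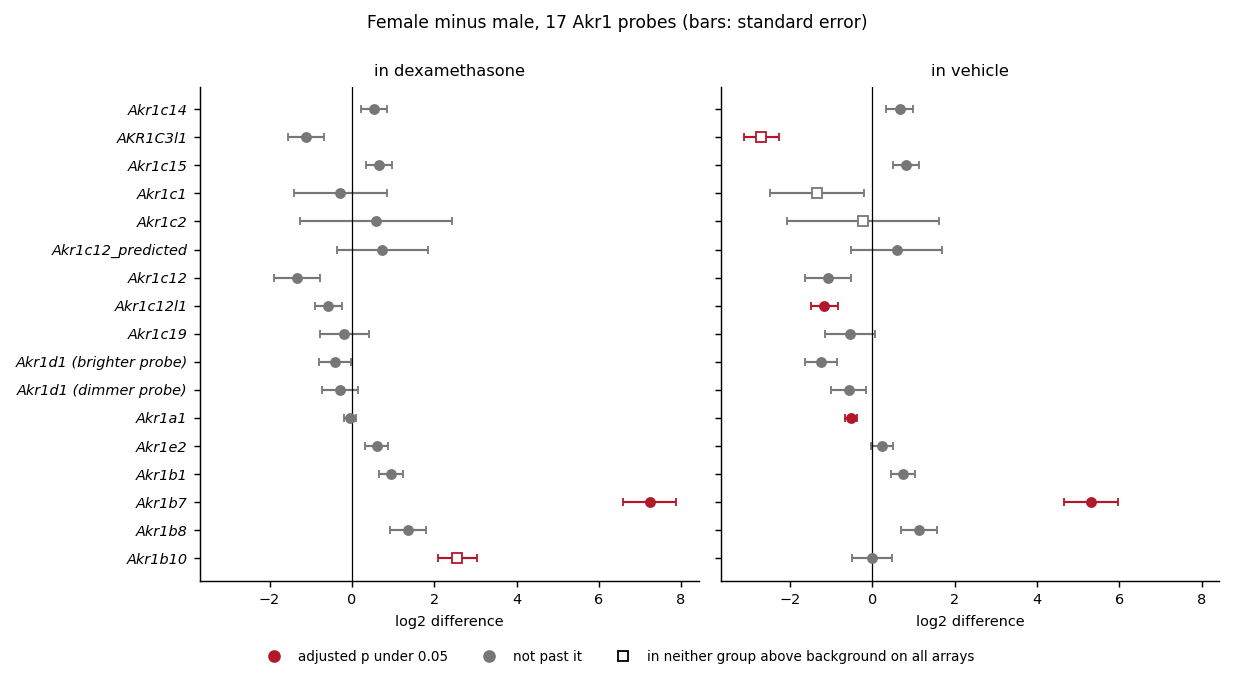
Difference between females and males (x axis, log2) for the 17 tested Akr1 probes in dexamethasone and in vehicle, with standard errors as bars; red marks an adjusted p under 0.05 and open squares a probe above background on all arrays of neither group. Akr1b7 stands at 7.23 in dexamethasone and 5.32 in vehicle, values that include the male background.

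The probes tied to the family by description or as pseudogenes were read apart. The probe AF159099, described as part of a 3α-hydroxysteroid dehydrogenase and listed at chr14:205866-205925, away from the stretch on chromosome 17, was 3.39, 4.25 and 4.17 in female dexamethasone, against 1.24, 1.92 and 1.79 in female vehicle. Male arrays read 3.58, 3.56 and 3.62 in dexamethasone, against 2.10, 2.19 and 2.94 in vehicle. It rose by 2.29 ± 0.29 in females (adjusted p = 0.0021) and by 1.18 ± 0.29 in males (adjusted p = 0.029; SE, n = 3 each). The difference of these responses was 1.11 ± 0.41 (SE, adjusted p = 0.3). The other 4 of these probes did not change with dexamethasone past the threshold in either sex. Among them, a probe described as aldose reductase-related protein 2-like averaged 3.16 ± 0.51 in female dexamethasone against 1.52 ± 0.78 in male dexamethasone, and 3.56 ± 0.51 in female vehicle against 1.52 ± 0.51 in male vehicle (SD, n = 3 each). Females were higher by 2.04 ± 0.43 in vehicle (limma adjusted p = 0.013) and 1.64 ± 0.43 in dexamethasone (adjusted p = 0.069, SE). The pseudogene probe Akr1b8-ps1 was higher in females by 1.69 ± 0.43 in vehicle (adjusted p = 0.028) and 1.24 ± 0.43 in dexamethasone (adjusted p = 0.15, SE). In vehicle 14.0% of all tested probes differed. The rest of these probes did not differ between the sexes past the threshold.

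Genes around the Akr1 enzymes were counted from lists written with earlier results of these data known. Over all tested probes 2.81% rose and 1.01% fell in females, and 5.36% rose and 4.85% fell in males. Counts near these shares are no result about a list. Of 22 measured genes of steroid A-ring and hydroxysteroid metabolism outside the Akr1 family, 3 rose and 0 fell in females and 4 rose and 0 fell in males, with a median difference of 0.09 and -0.03. Rdh16, a retinol and hydroxysteroid dehydrogenase, rose by 3.85 ± 0.60 in females (adjusted p = 0.0072) and 4.24 ± 0.60 in males (adjusted p = 0.0027; SE, n = 3 each). Hsd3b1, a 3β-hydroxysteroid dehydrogenase, rose by 2.23 ± 0.46 in females (adjusted p = 0.025) and 2.06 ± 0.46 in males (adjusted p = 0.02); it has close copies that its probe may also read. Between the sexes, 1 of the 22 was higher and 3 were lower in female dexamethasone, and 3 were higher and 5 lower in female vehicle. Of all tested probes, 1.23% were higher and 1.77% lower in female dexamethasone, and 6.25% higher and 7.73% lower in female vehicle. Srd5a1, the 5α-reductase that acts on the same steroids as Akr1d1, was higher in females in both, by 1.16 ± 0.17 in dexamethasone (adjusted p = 0.0074) and 1.24 ± 0.17 in vehicle (adjusted p = 0.0021), and Hsd3b5 was lower, at -3.66 ± 0.48 in dexamethasone (adjusted p = 0.0045) and -3.33 ± 0.48 in vehicle (adjusted p = 0.0026; SE, n = 3 each), with 2 of 3 vehicle arrays of each sex above background.

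Bile acid synthesis around Akr1d1 was read from 14 measured genes, of which 1 rose and 1 fell in females and 2 rose and 1 fell in males. Among all tested probes 3.82% changed in females and 10.2% in males. Cyp27a1, the sterol 27-hydroxylase, rose by 1.60 ± 0.25 in females (adjusted p = 0.0077) and 1.07 ± 0.25 in males (adjusted p = 0.025; SE, n = 3 each). Ch25h, cholesterol 25-hydroxylase, fell by 2.25 ± 0.30 in females (adjusted p = 0.0029) and fell by 2.45 ± 0.30 in males (adjusted p = 0.0014; SE, n = 3 each). The further rise in males was Hsd17b4, of peroxisomal side-chain shortening, at 0.48 ± 0.14 (SE, n = 3 each, adjusted p = 0.048). The median of the 14 was 0.03 in females and 0.13 in males.

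Of 22 other carbonyl, aldehyde and alcohol enzymes, 1 rose and 0 fell in females and 3 rose and 1 fell in males. The shares of all tested probes that changed were 3.82% in females and 10.2% in males. Dhrs3, which reduces retinal, rose by 1.23 ± 0.25 in females (adjusted p = 0.024) and 1.71 ± 0.25 in males (adjusted p = 0.0031; SE, n = 3 each). In males Adh6, an alcohol dehydrogenase, rose by 1.13 ± 0.23 (adjusted p = 0.013), and Aldh3a1, an aldehyde dehydrogenase, fell by 0.97 ± 0.18 (adjusted p = 0.01; SE, n = 3 each). Among the 9 genes of the polyol and ascorbate pathways around Akr1b1 and Akr1a1, 0 passed in either sex by limma, and 0 had an unadjusted p under 0.05. Genes known as NRF2 targets, a set that in other species includes Akr1b and Akr1c genes, were read from 13 measured ones. In females 0 passed, and 2 had an unadjusted p under 0.05, as did 16.7% of all tested probes. In males Me1 fell, by 0.69 ± 0.18 (SE, n = 3 each, limma adjusted p = 0.038), where 4.85% of all tested probes fell. Of 4 measured genes in the other aldo-keto reductase families, 0 passed in either response by limma. In each response 1 had an unadjusted p under 0.05, as did 16.7% of all tested probes in females and 27% in males. Between the sexes in vehicle, 0 of the 4 passed as higher in females and 2 as lower, where 6.25% of all tested probes were higher and 7.73% lower. Akr7a3, which reduces aflatoxin dialdehyde, differed by -1.90 ± 0.50 (SE, n = 3 each, adjusted p = 0.031). Kcnab1, a subunit of potassium channels, was above background on 1 of 3 female and 0 of 3 male vehicle arrays, so no size is given (adjusted p = 0.013).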

How the data were processed

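Each of the 12 array files holds, per the file headers, intensity values of spots read with Agilent Feature Extraction 9.5.3.1; the processed signal is a linear intensity with the background already subtracted by the authors' scanner software. The authors' deposited value table holds the same intensity in 540216 of 540216 compared values, linear and with no centring. From these, outlier spots were left out, repeated spots of a probe were averaged on the log2 scale, and the 75th percentile of each array was subtracted. Probes that every array of 1 group read well above background were tested with limma 3.58.1 in R 4.3.3: 4 group means over 12 arrays, a shared spread, two-sided, with Benjamini-Hochberg adjustment over 30969 probes and a threshold of 0.05. Symbols were updated through RefSeq by accession or older symbol; that table named 21900 probes, and 112 names were refused because it places the gene on another chromosome. Arrays give no depth, so their number limits the precision. Steps were tested on simulated data.

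The members and gene lists were chosen with earlier results of these data known. Values of every array are given for the 5 genes named first and for each other member past the threshold in a comparison with 1 group above background on all its arrays, to which Akr1c2, Akr1c12_predicted, Akr1c12 and Akr1e2 were added after their values were seen. List genes are named as the 2 largest rises and falls that pass.

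Replicate numbers of the titles were checked as pairs: deviations from the group means of same-numbered samples, over 17454 probes, correlated at 0.36 to 0.54 between female dexamethasone and vehicle, 0.40 to 0.59 between male dexamethasone and vehicle, 0.23 to 0.30 between female and male dexamethasone and 0.04 to 0.18 between female and male vehicle. Alternatives were another scaling, background correction, dim-probe filter, slide or replicate block, own-group fits, array weights, and leaving out each array.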

Additional observations from a re-analysis of the deposited data

How the results depend on the processing

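The 17 Akr1 probes called in the female response numbered 4, where 3.82% of all tested probes were called. The number was 2 with the array median as scale (3.18% of all), with quantile normalization (2.04%) and with no filter on dim probes (1.96%), 1 with only probes above background on all 12 arrays, which 11 of the Akr1 probes were (3.3%), and 7 with array weights (18.5%). In the male response it was 6 (10.2% of all), against 2 with that filter (13.5%), 2 with slide as a block (1.85%), 1 with only the arrays of the groups compared (1.08%) and 3 with array weights (4.1%). On the 4 arrays of 1 slide, with 1 dexamethasone array, it was 0, where limma called 0 of 30962 probes and 2456 had an unadjusted p under 0.05, so that this count says nothing about the members. For the difference of the responses it was 0 (0.107%), and 1, Akr1b10, with no filter, where 18.1% of all probes were called. For the sexes in dexamethasone it was 2 (2.99%), against 1 with quantile normalization (2.07%), 0 with the filter on all 12 arrays (3.97%) and 0 with slide as a block (0.116%). For the sexes in vehicle it was 4 (14.0%), against 1 with slide as a block (0.568%) and 2 with array weights (8.41%). With the replicate block it was 4 in dexamethasone (5.63%) and 7 in vehicle (18.1%), where the numbers do not pair the samples; with the block within sex it was 5 in the female (6.46%) and 8 in the male response (15.8%). Leaving out 1 array at a time gave 2 to 5 in females, 4 to 7 in males, 0 to 1 for their difference, 1 to 2 in dexamethasone and 2 to 5 in vehicle. Akr1b10 reversed in dexamethasone to -0.0745 with normexp. Over all probes the male response had 1659 higher and 1501 lower calls and a median of -0.06, against 1236 and 2501 with a median of -0.18 under the array median, 2655 and 1264 under quantile normalization, and 1112 and 3517 with a median of -0.24 under normexp. The sexes in vehicle had 1937 higher and 2393 lower calls, against 3488 and 1985 under quantile normalization and 1875 and 12225 under normexp. The call on Akr1c14 passed in 25 of 25 alternatives in females and 24 of 25 in males, the exception being that slide, AKR1C3l1 in 24 of 24 in females and Akr1b7 in 22 of 22 between the sexes in vehicle. The probes of AKR1C3l1 and Akr1b7 entered the test only through the groups where they were high. The cause of the changes was not tested. The block within sex and the fits within 1 slide were added after seeing the data.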

Other observations

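The stretch of chromosome 17 that holds all Akr1c probes but that of Akr1c12 holds or adjoins 4 probes with only an accession-style name and no gene symbol, and that of the Akr1b probes holds 1. One of them, TC524103 at chr17:77158718-77158777 on rn3, was at -5.44 ± 0.56 in female dexamethasone, above background on all 3 arrays. In female vehicle it was at -8.88 ± 0.09, above background on none (SD, n = 3 each). It entered the test only through female dexamethasone, the group where it was high, so no p-value is given. In males it was above background on 2 of 3 arrays in dexamethasone and 0 of 3 in vehicle. It lies between the probes of Akr1c1 and Akr1c12_predicted. BQ202499, at chr17:77036427-77036486, was above background on all 3 arrays of female dexamethasone, female vehicle and male dexamethasone and on 0 of 3 of male vehicle, with differences of 1.00 in females (adjusted p = 0.169) and 0.98 in males (adjusted p = 0.106). These probes were chosen for their place, after their values were seen.

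Genes whose levels over the 12 arrays lay nearest to those of Akr1c12_predicted, a comparison added after its values were seen, were Klkb1, Slc2a2 and Gjb2, at root-mean-square distances of 0.75, 0.87 and 0.90 (log2), much farther than the nearest genes of Akr1c14. Klkb1, the gene of plasma prekallikrein, was 2.14, 1.89 and 1.46 in female dexamethasone, against 2.15, 2.06 and 1.52 in female vehicle. It was 0.87, 2.99 and 1.09 in male dexamethasone, against 0.02, 2.39 and 0.85 in male vehicle. As with Akr1c12_predicted, number 3 was lowest in both female groups and number 2 highest in both male groups. Klkb1 was picked for its likeness over these same 12 arrays, so the shared order of replicates follows from the choice.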
